A study of Mus musculus with 10 samples.

Results

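The transcription factors Cdx1, Cdx2, Gata4, Gata6, Hnf4a, Hnf4g, Hoxb13 and Hoxd13 set or maintain the identity of the different stretches of the gut. They were taken from the tables by symbol and are 8 of the 19456 genes listed in at least 1 of the libraries. All 8 were found in the tables and all 8 passed the filter on low counts. The libraries were poly-A RNA of intestinal tissue from C57BL/6 mice, with 3 untreated wild-type (WT), 3 untreated transgenic (TG), 2 DSS-treated WT and 2 DSS-treated TG libraries. TG mice overexpress ITGB6, the beta 6 subunit of an epithelial integrin. DSS, dextran sulfate sodium, was given by mouth at 2.5% to set up a model of intestinal fibrosis and is known to injure the colonic epithelium. No allele or agent was shared by all 4 groups. The labels used here give no age, gut segment, promoter of the transgene or target cell type. They also do not say whether the libraries of a group are separate animals. The p-values below therefore rest on a spread between libraries that may be technical.

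The 10 libraries held 15393859 to 18284704 expected counts. The human ITGB6 entry, at 2201 to 3913 CPM (reads per gene relative to the library total, adjusted with TMM factors) in the 5 TG libraries and at most 1.13 CPM in the 5 WT libraries, matched the genotype labels in every library. Epithelial markers summed to 8758 to 11440 FPKM (fragments per kilobase, scaled to library size, a level per transcript length), and 7 smooth muscle markers to 4.13 to 5.67 FPKM. Xist, expressed from the inactive X chromosome, was at or below 0.417 CPM in the 6 untreated libraries and at 307 to 739 CPM in the 4 DSS libraries, while Y-linked Kdm5d was at 26.6 to 44.2 CPM and at 0 in the same libraries. The effects of DSS and of sex, female after DSS and male before, cannot be told apart. In bulk tissue, fewer cells of a type and less RNA per cell also cannot be told apart.

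As background, gut identity along the head-to-tail axis is laid down by layers of such factors. CDX1 and CDX2 are homeodomain proteins that specify intestine as opposed to stomach. GATA4 and GATA6 are zinc finger factors: GATA4 marks the proximal small intestine and is absent from distal ileum and colon, whereas GATA6 acts along the whole intestine. HNF4A and HNF4G are nuclear receptors that drive enterocyte differentiation, with HNF4A active in small intestine and colon and HNF4G most prominent in the small intestine. HOX genes lie in clusters whose order along the chromosome mirrors their order along the body, and those of paralog group 13, including HOXB13 and HOXD13, mark its most posterior end, in the gut the distal colon and rectum.

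The results below turn on Hoxd13 and its neighbours at the same end of the HoxD cluster, so the promoters of the 3 HOX genes that differed with genotype are shown first. Of the 8 factors, 3 had an entry in the promoter table (Hoxd13, Hnf4a and Cdx2). Each stretch is the 250 bases before a RefSeq start in GRCm38.p6 on the plus strand: chr2:74667975-74668224 for Hoxd13, chr2:74679308-74679557 and chr2:74682073-74682322 for the first and second start of Hoxd11, and chr2:74691641-74691890 for Hoxd10. Capitals mark ATAAA, the core bound by both CDX and posterior HOX proteins, on either strand (TTTAT on the other).

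Hoxd13: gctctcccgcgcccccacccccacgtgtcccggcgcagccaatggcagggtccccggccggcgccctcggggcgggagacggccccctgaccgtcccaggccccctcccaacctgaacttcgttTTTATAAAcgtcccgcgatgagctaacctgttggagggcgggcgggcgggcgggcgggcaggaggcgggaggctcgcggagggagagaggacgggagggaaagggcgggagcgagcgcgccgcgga
Hoxd11, first start: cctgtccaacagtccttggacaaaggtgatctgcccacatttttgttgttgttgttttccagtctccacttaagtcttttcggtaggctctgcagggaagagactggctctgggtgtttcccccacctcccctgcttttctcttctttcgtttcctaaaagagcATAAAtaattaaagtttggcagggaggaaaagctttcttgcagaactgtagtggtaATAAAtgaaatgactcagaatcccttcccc
Hoxd11, second start: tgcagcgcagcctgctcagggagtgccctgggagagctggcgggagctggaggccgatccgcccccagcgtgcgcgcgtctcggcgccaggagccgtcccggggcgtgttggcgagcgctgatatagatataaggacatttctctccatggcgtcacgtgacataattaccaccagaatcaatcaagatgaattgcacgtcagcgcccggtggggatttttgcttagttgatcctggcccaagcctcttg
Hoxd10: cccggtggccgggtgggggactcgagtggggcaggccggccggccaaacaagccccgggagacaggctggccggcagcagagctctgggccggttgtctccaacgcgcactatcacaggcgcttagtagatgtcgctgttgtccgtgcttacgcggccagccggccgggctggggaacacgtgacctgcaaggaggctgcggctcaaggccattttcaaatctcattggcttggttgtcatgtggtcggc

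Hoxd13 held 2 matches, which overlap each other on opposite strands, and the first Hoxd11 stretch held 2. The second Hoxd11 stretch and that of Hoxd10 held 0. ATAAA or TTTAT occurred in 37.3% of all 32851 promoter stretches of this length, so a match is common. Longer motifs were sought on both strands and none was found in the 4 stretches. CAATAAA, a form of the first core preferred by HOX13 and CDX proteins, was in 4.2% of all stretches. The erythroid-type site of zinc finger factors, AGATAAG, was in 2.74% of them. CAAAGTCCA, bound by HNF4 proteins, was in 0.384% of them. GC content was 74.4% in the Hoxd13 stretch, 44.8 and 60.4% in those of Hoxd11 and 65.6% in that of Hoxd10. These matches are letters in a window and were not tested as binding sites.

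The first question was which region of the gut the libraries resembled. All 10 carried the factor profile of hindgut: Cdx1, Hnf4a, Hoxb13 and Cdx2 were abundant, Gata6 was intermediate and Gata4 was close to the floor. Mean levels over the 10 libraries were 314 ± 26.0 FPKM (SD, n = 10) for Cdx1, 234 ± 19.9 for Hnf4a, 145 ± 26.8 for Hoxb13 and 139.5 ± 28.2 for Cdx2. Below these stood Gata6 at 23.8 ± 2.35 FPKM, Hoxd13 at 11.6 ± 4.87, Hnf4g at 8.90 ± 2.29 and Gata4 at 0.301 ± 0.148. Cdx1 had a higher FPKM than 98.65% of the genes listed, and Gata4 a higher one than 30.63%. Neighbours in this order overlapped in range in only 2 cases: Hoxb13 was above Cdx2 in 6 of 10 libraries, and Hoxd13 above Hnf4g in 7 of 10. The other neighbours kept their order in 10 of 10 libraries.

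Marker genes of the regions, which are not members, gave the same reading for colon and stomach and a mixed one for the small intestine. All 12 colon markers had a mean of at least 1 FPKM and together summed to 5475 to 11620 FPKM per library, led by Car1, a colonic carbonic anhydrase (2542 to 8442 FPKM), Ceacam1, Muc2 (the goblet cell mucin, 465 to 1692 FPKM) and Retnlb. Some genes of the proximal small intestine were near 0: lactase (Lct) reached at most 0.04 FPKM, Slc2a2 0.02, Apoa4 0.33 and Fabp1 0.82. Others were not, and 11 of the 20 listed had a mean of at least 1 FPKM. The whole list of 20 duodenal and jejunal genes summed to 180.1 to 515.2 FPKM, with 9 of 20 under a mean of 1 FPKM, and most of that sum was Fabp2, a fatty acid binding protein, at 91.4 to 373.5 FPKM, followed by the glucose carrier Slc5a1 at 35.5 to 64.1. Fgf15, the ileal hormone induced by bile acids, reached at most 0.14 FPKM, although 7 of the 9 ileal genes had a mean of at least 1 FPKM and the list summed to 312 to 435 FPKM. Pdx1, a duodenal and pancreatic factor, was at 0.19 to 0.43 FPKM, and Gata5 at 0.24 to 0.80. The 10 stomach markers summed to at most 0.41 FPKM, with Gkn1, Gkn2, Gkn3 and Muc5ac at 0 in every library, and Sox2, the foregut factor, reached 0.02 FPKM in 1 library and was listed at 0 in the other 9.

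**Figure D1:**
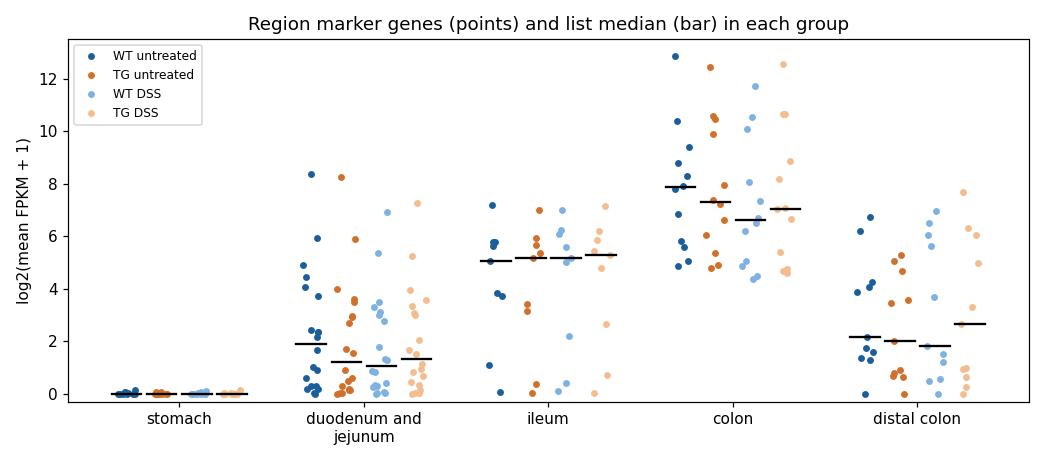
Markers of 5 regions of the gut in the 4 groups, as log2 of the group mean FPKM plus 1 (vertical axis). Each point is 1 gene and black bars are list medians. Genes not listed are drawn at 0, as is Prac1 of the distal colon list, which was not matched to an entry. Every colon marker is above 1 FPKM on average and every stomach marker is near 0 in each group, while the duodenal and jejunal list is spread from 0 to Fabp2.

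Posterior HOX genes dominated in every library. Of the 39 HOX genes of the mouse, 23 had a mean of at least 1 FPKM. In the HoxC cluster this was 0 of 9, with Hoxc4, Hoxc11, Hoxc12 and Hoxc13 listed at 0 in every library. The other clusters were expressed over most of their length, with 9 of 11 HoxA, 8 of 10 HoxB and 6 of 9 HoxD genes at or above 1 FPKM. Hoxb13 alone made up 39.15 to 48.83% of the summed FPKM of all HOX genes, and group 13 (Hoxa13, Hoxb13 and Hoxd13) 44.76 to 56.63%. The next most abundant HOX genes were Hoxb9 at 29.0 FPKM on average, Hoxb6 at 24.0, Hoxa10 at 16.5, and then Hoxd13 and Hoxa13 at 11.6 and 11.5.

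**Figure D2:**
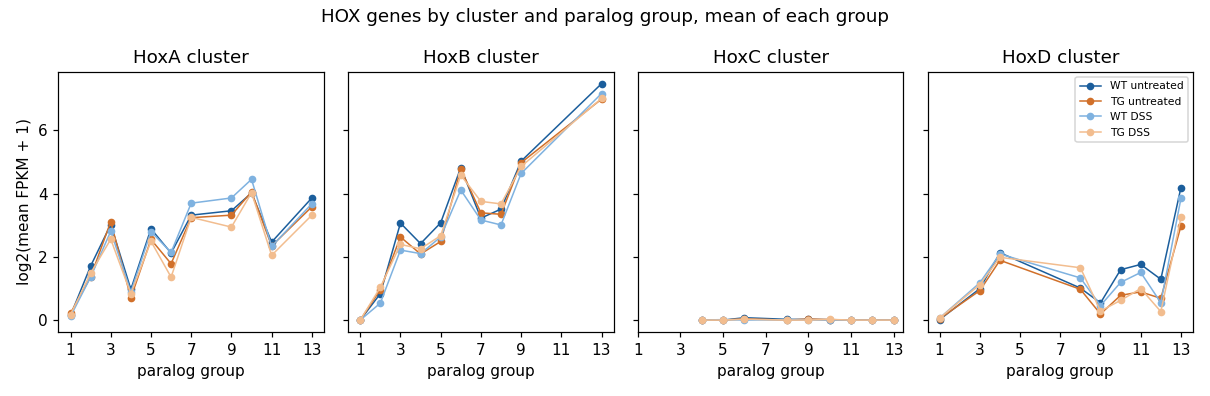
Mean FPKM plus 1 of every HOX gene on a log2 axis, by cluster (panels) and paralog group (horizontal axis), with 1 line per group of libraries. Hoxb13 is the highest point in every group, HoxC lies at 0, and the TG lines run below the WT lines at the right-hand end of HoxD.

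Among the 8 factors, the difference that passed the test was in Hoxd13, which was lower in untreated TG than in untreated WT tissue. Hoxd13 read 41.9, 42.5 and 39.2 CPM in the 3 untreated WT libraries and 21.1, 15.8 and 14.95 CPM in the 3 untreated TG libraries. The groups did not overlap, and the highest TG library lay well below the lowest WT library. The means were 41.2 ± 1.78 CPM (SD, n = 3) and 17.3 ± 3.34 CPM (n = 3), a 2.38-fold difference (log2 fold change -1.25, SE 0.17, adjusted p = 0.0071, quasi-likelihood test in edgeR, adjusted over 14072 genes by Benjamini and Hochberg). In the same comparison 1.44% of all genes were called lower and 15.4% had groups that did not overlap with TG lower. The call was made in 22 of 22 fits, which cover other scalings, filters and tools and leaving out each library, with adjusted p between 5.671e-08 and 0.03939. Hoxd13 is a gene of chromosome 2 (74668225 to 74671603, GRCm38) and is known for patterning of limbs, genitalia and hindgut.

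Hoxb13, the more abundant paralog on chromosome 11 (96194316 to 96196610), pointed the same way with a smaller difference that was not called. It read 214.6, 229.1 and 217.7 CPM in untreated WT and 198.5, 155.9 and 144.9 CPM in untreated TG libraries. These groups did not overlap either, but TG untreated 1 lay close to the WT libraries. The log2 fold change was -0.41 (SE 0.14, adjusted p = 0.143 by edgeR), with an interval of plus or minus 2 SE from -0.69 to -0.12. Without TG untreated 1 it was -0.55 and passed the threshold (adjusted p = 0.0314), the 1 fit of 22 in which it did. Because Hoxd13 differed more than Hoxb13, the FPKM ratio of Hoxb13 to Hoxd13 was 10.3 ± 0.415 (n = 3) in untreated WT and 18.5 ± 0.462 (n = 3) in untreated TG. Every TG library (18.03 to 18.95) was above every WT library (9.82 to 10.6), TG untreated 1 included. The ratio was not tested. Hoxa13, the remaining expressed gene of group 13, read 15.2 to 20.3 CPM in untreated WT and 12.05 to 16.3 CPM in untreated TG, and the groups overlapped (log2 fold change -0.22, SE 0.19, adjusted p = 0.536).

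**Figure D3:**
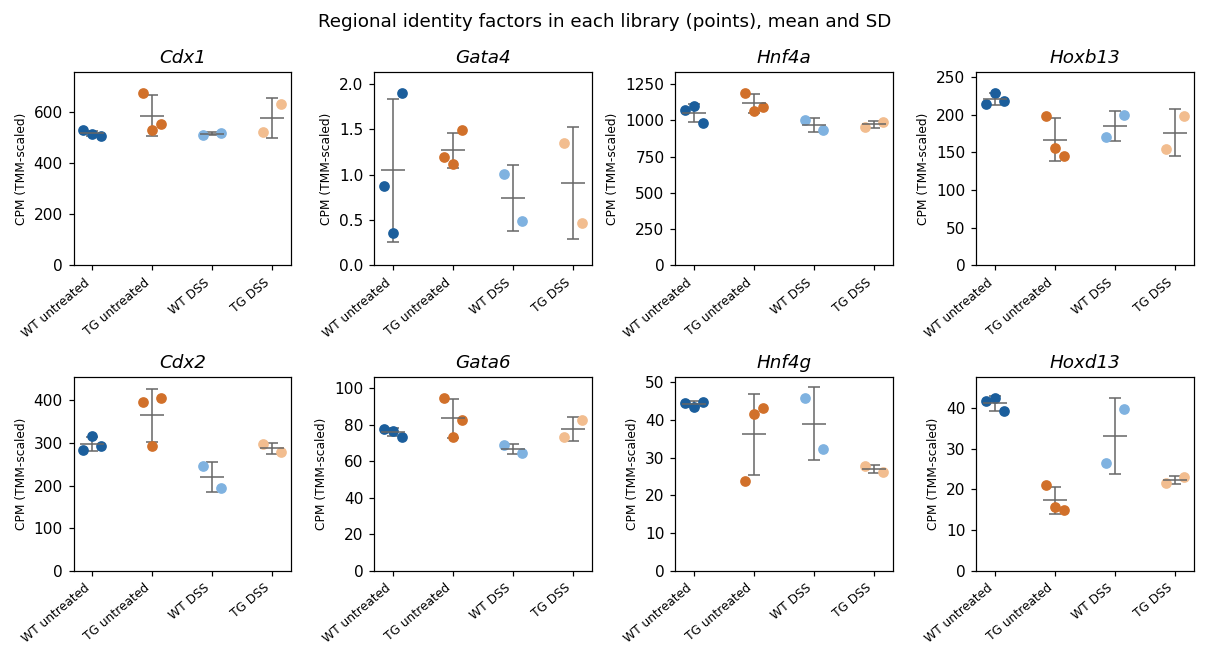
TMM-scaled CPM of the 8 factors (vertical axes, from 0) in the 4 groups, with 1 point per library and bars for mean and SD. Hoxd13 is at 39.2 to 42.5 CPM in the 3 untreated WT libraries and at 14.95 to 21.1 CPM in the 3 untreated TG libraries, while Cdx1, Gata6 and Hnf4a stay within a narrow range.

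Near Hoxd13 at the posterior end of the HoxD cluster, Hoxd11 and Hoxd10 were lower as well. Hoxd11 read 8.62, 9.58 and 7.14 CPM in untreated WT and 4.65, 2.30 and 2.73 CPM in untreated TG libraries. Its log2 fold change was -1.39 (SE 0.27, adjusted p = 0.0228). Hoxd10 read 3.46, 4.29 and 2.95 CPM in WT and 1.25, 1.004 and 1.80 CPM in TG libraries (log2 fold change -1.40, SE 0.31, adjusted p = 0.0361). Neither gene overlapped between the groups, and each was called in 16 of 22 fits. Both are patterning genes of limb and trunk whose annotated models overlap each other on the plus strand. Their reads may be split between them, so their single values are uncertain.

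Hoxd12 (log2 fold change -1.15, adjusted p = 0.143), Hoxd9 (-1.58, 0.0713) and Evx2, the homeobox gene that flanks the cluster beyond Hoxd13 (-1.32, 0.118), had similar fold changes but were not called, and the Hoxd12 groups overlapped (TG untreated 1 at 2.80 CPM, WT untreated 3 at 2.65 CPM). Their levels were low, at 3.52, 0.918 and 1.76 CPM on average in untreated WT. The genes further along did not follow. Hoxd8 was at 1.94 CPM in WT and 1.89 CPM in TG libraries (log2 fold change -0.04), and Hoxd3 and Hoxd4, whose models also overlap, differed by -0.05 and -0.24. Mtx2, a mitochondrial gene beyond the anterior end, differed by 0.03, and Lnpk, beyond the posterior end, by -0.38 (adjusted p = 0.446). The 6 genes from Evx2 to Hoxd9 thus spanned -1.58 to -1.15 and the 3 genes from Hoxd8 to Hoxd3 -0.24 to -0.04. This division of the cluster was made after the values were seen and was not tested.

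**Figure D4:**
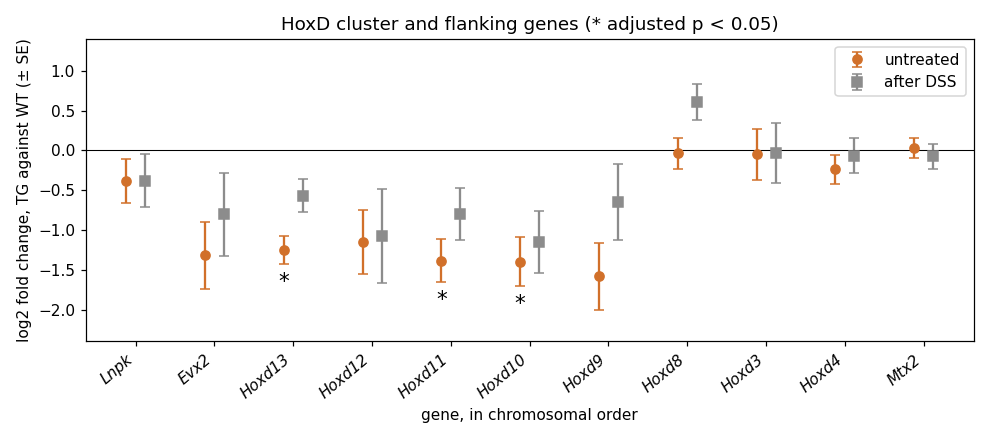
Log2 fold change of TG against WT (± SE) for HoxD genes that passed the filter and their flanking genes, in chromosomal order, in untreated tissue (circles) and after DSS (squares); asterisks mark adjusted p under 0.05. Evx2 to Hoxd9 lie between -1.58 and -1.15 in untreated tissue, and Hoxd8, Hoxd3, Hoxd4 and Mtx2 lie near 0.

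Over all HOX genes, 27 were tested and 3 (Hoxd10, Hoxd11 and Hoxd13) were called lower in untreated TG tissue and 0 higher, where 1.44% of all genes were called lower and 2.26% higher. The median log2 fold change was -1.20 over the 8 tested HoxD genes, -0.15 over the 10 HoxA genes and -0.09 over the 9 HoxB genes, with -0.02 over all tested genes. Lower values were not confined to HoxD. The groups did not overlap with TG lower in 10 of the 27 HOX genes and with TG higher in 1, beside 15.4% and 16.7% of all genes. Of those 10, 4 were HoxD, 4 HoxB and 2 HoxA genes. Without any 1 of the 3 untreated WT libraries, or without TG untreated 2, the number called fell to 1, which was Hoxd13. Without TG untreated 1 it was 4.

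Most fibroblast genes also read higher in untreated TG tissue, with 7 of 8 log2 fold changes above 0. Pdgfrb read lower without overlap, at 2.22, 2.56 and 1.84 FPKM in WT and 1.59, 1.04 and 1.07 FPKM in TG libraries. Over all genes, 15.4% had groups apart with TG lower. Of 8 genes 4 (Col1a1, Col1a2, Col3a1 and Dpt) were called higher, against 2.26% of all genes, and the list summed to 10.9 to 34.2 FPKM against 8.90 to 12.1 FPKM in untreated WT. The 9 leukocyte genes summed to 35.5 to 149 FPKM in TG and 156.7 to 796.1 FPKM in WT libraries, with 0 of 9 called by edgeR, 3 under 0.05 before adjustment and 1, Cd74, called by DESeq2. Of 8 epithelial genes 1, Krt18, was called higher. The part of these levels in the HoxD values was not tested. TG untreated 1 had the lowest TG sum, 10.9 FPKM, and its genes were split. Its Col1a1 (1.77 FPKM), Col1a2 (2.08), Col3a1 (2.37) and Dpt (1.24) were each above all 3 untreated WT libraries, Col3a1 narrowly (2.27 in WT untreated 3). Its Dcn (1.8 FPKM), Lum (0.03) and Pdgfrb (1.59) were each below all 3 of them, and Pdgfra (0.03) was level with the lowest.

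The mean CPM of both CDX genes was higher in TG than in WT tissue in both treatments, without a call and with overlap in part. Cdx2, the master factor of intestinal fate, read 284.2, 316.4 and 292.3 CPM in untreated WT and 395.6, 293.4 and 406.2 CPM in untreated TG libraries. Libraries TG untreated 1 and 3 were above all WT libraries and TG untreated 2 was not (log2 fold change 0.29, SE 0.14, adjusted p = 0.266). Cdx1, its close relative in the crypt, read 529.5, 513.9 and 507.0 CPM in untreated WT and 677.1, 530.4 and 552.5 CPM in untreated TG libraries. The lowest TG value was just above the highest WT value, and 16.7% of all genes had groups apart with TG higher (log2 fold change 0.18, SE 0.12, adjusted p = 0.399). The FPKM ratio of Cdx1 to Cdx2 was 2.14 ± 0.148 (n = 3) in untreated WT, 2.002 ± 0.290 (n = 3) in untreated TG, 2.92 ± 0.501 (n = 2) in WT after DSS and 2.49 ± 0.450 (n = 2) in TG after DSS.

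Gata6 read 77.5, 76.7 and 73.6 CPM in untreated WT and 94.8, 73.5 and 82.7 CPM in untreated TG libraries, and the groups overlapped (log2 fold change 0.14, SE 0.11, adjusted p = 0.496). Gata4 was counted 6 to 31 times in a library, or 0.357 to 1.91 CPM. At this depth differences between groups were not detectable, and the interval of plus or minus 2 SE for TG against WT untreated ran from -0.84 to 1.395 on the log2 scale. Gata6 exceeded Gata4 by an FPKM ratio of 40.95 or more in every library.

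Hnf4a was among the steadiest of the factors. It read 1071, 1097 and 979.6 CPM in untreated WT and 1191, 1066 and 1095 CPM in untreated TG libraries, with overlapping groups (log2 fold change 0.09, SE 0.10, adjusted p = 0.614), and the plus or minus 2 SE interval from -0.10 to 0.29 bounds the difference. Hnf4g read 44.5, 43.4 and 44.9 CPM in untreated WT and 23.9, 41.6 and 43.2 CPM in untreated TG libraries. TG untreated 1 alone was far below the rest, and the difference was not called (log2 fold change -0.29, SE 0.21, adjusted p = 0.453). In the same library Cdx1 and Gata6 had their highest values of all 10 libraries, and the leukocyte genes their lowest sum (35.5 FPKM).

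Counted together, 1 of the 8 factors was called in untreated tissue (Hoxd13, lower), where 3.7% of all genes were called in either direction. At an unadjusted p under 0.05 it was 2, with Hoxb13, and DESeq2 called 1.

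After DSS, the TG libraries again read lower for Hoxd13 than the WT libraries, but 0 of the 8 factors were called by edgeR or DESeq2, where 0.185% of all genes were called (0.178% higher, 0.00711% lower). At an unadjusted p under 0.05 there were 2, Hoxd13 and Cdx2. Hoxd13 read 26.5 and 39.8 CPM in WT and 21.6 and 23.1 CPM in TG libraries after DSS. The groups did not overlap, as for 21.2% of all genes with TG lower, and the 2 WT libraries differed from each other by more than the TG libraries did from WT DSS 1 (log2 fold change -0.57, SE 0.21, adjusted p = 0.341). Cdx2 read 244.9 and 194.9 CPM in WT and 296.5 and 277.7 CPM in TG libraries (0.38, SE 0.17, adjusted p = 0.439), again with no overlap, as for 22.0% of all genes with TG higher. Hnf4g read 45.9 and 32.2 CPM in WT and 27.8 and 26.2 CPM in TG libraries (-0.53, SE 0.26, adjusted p = 0.486). Hoxb13 read 170.5 and 199.2 CPM in WT and 153.8 and 198.1 CPM in TG libraries and overlapped (-0.07, SE 0.17, adjusted p = 0.908).

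None of the posterior HoxD genes was called in TG against WT after DSS. The 6 genes from Evx2 to Hoxd9 had log2 fold changes of -1.16 to -0.57, and in 5 of them the groups did not overlap, as for 21.2% of all genes with TG lower. Hoxd8 stood out on the other side, at 2.94 CPM in WT and 4.48 CPM in TG libraries (0.61, SE 0.22, adjusted p = 0.336). The FPKM ratio of Hoxb13 to Hoxd13 was 10.96 ± 1.95 (n = 2) in WT and 15.04 ± 2.001 (n = 2) in TG tissue.

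In WT tissue, 7 of the 8 factors had log2 fold changes between -0.49 and -0.12 with DSS, none of them called, and Cdx1 was level at 516.8 ± 11.6 CPM (n = 3) untreated and 515.3 ± 5.42 CPM (n = 2) after DSS. By edgeR and DESeq2 0 of 8 passed, where 19.8% of all genes did (9.62% lower, 10.2% higher), and 1 (Cdx2) was under 0.05 before adjustment. Cdx2 went from 284.2, 316.4 and 292.3 CPM untreated to 244.9 and 194.9 CPM after DSS, without overlap, as for 29.1% of all genes that were lower (log2 fold change -0.44, SE 0.16, adjusted p = 0.0793). It passed in 7 of 22 fits, with adjusted p between 0.0303 and 0.445, the highest without WT DSS 2. Hoxb13 went from 214.6, 229.1 and 217.7 CPM to 170.5 and 199.2 CPM (-0.25, SE 0.16, adjusted p = 0.298). For Hoxd13, WT DSS 1 at 26.5 CPM was below the untreated WT libraries and WT DSS 2 at 39.8 CPM was within their range (-0.31, SE 0.19, adjusted p = 0.285). The others had log2 fold changes of -0.19 for Gata6, -0.12 for Hnf4a, -0.18 for Hnf4g and -0.49 for Gata4.

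Of the other HOX genes in WT tissue, Hoxb3 fell from 22.0, 23.7 and 26.3 CPM to 14.5 and 10.3 CPM with DSS (log2 fold change -0.96, SE 0.19, adjusted p = 0.00915). Hoxd12 also fell (-1.57, SE 0.47, adjusted p = 0.0414), from 3.81, 4.11 and 2.65 CPM to 1.06 and 1.30 CPM. Hoxa10 rose from 33.0, 28.6 and 37.2 CPM to 45.3 and 47.5 CPM, and 28.4% of all genes had groups apart with DSS higher (0.50, SE 0.15, adjusted p = 0.0457, called in 8 of 22 fits). These 3 of 27 tested HOX genes compare with 19.8% of all genes called. All 9 tested HoxB genes had a log2 fold change below 0, with a median of -0.45.

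In TG tissue, DSS was not accompanied by a call in any of the 8 factors (0 by edgeR, by DESeq2 and before adjustment), where 5.48% of all genes were called (3.33% higher, 2.15% lower). Hoxd13 went from 21.1, 15.8 and 14.95 CPM to 21.6 and 23.1 CPM, both DSS libraries being above the untreated ones, as for 19.1% of all genes (log2 fold change 0.37, SE 0.19, adjusted p = 0.326). Cdx2 went from 395.6, 293.4 and 406.2 CPM to 296.5 and 277.7 CPM (-0.35, SE 0.16, adjusted p = 0.254). Hnf4g went from 23.9, 41.6 and 43.2 CPM to 27.8 and 26.2 CPM (-0.42, SE 0.24, adjusted p = 0.366). Without TG untreated 1 the last change was -0.65 and passed (adjusted p = 0.0225). Cdx1, Gata6, Hnf4a, Hoxb13 and Gata4 had log2 fold changes of -0.02, -0.10, -0.20, 0.08 and -0.48. Hoxd8 was the only HOX gene called among the 27 tested. It rose from 1.91, 1.89 and 1.86 CPM to 4.69 and 4.27 CPM (1.24, SE 0.20, adjusted p = 0.00692).

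The response to DSS was not shown to differ with genotype for any of the factors. In the interaction test 0 of 8 were called by edgeR or DESeq2, where 0.846% of all genes were (0.526% higher, 0.32% lower), and 1 (Hoxd13) was under 0.05 before adjustment. For Hoxd13 the change with DSS was 0.68 higher in TG than in WT on the log2 scale (SE 0.27, adjusted p = 0.351). For the other 7 the interaction lay between -0.24 (Hnf4g) and 0.33 (Hoxb13). The comparisons share libraries, so the values of 1 group enter several of them.

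Markers of the distal colon were then compared between the groups. The list held 11 genes, 3 of them from the posterior HoxD cluster, so it is not separate from the HoxD values above, and Ly6g also marks neutrophils. In untreated TG tissue 4 of 10 tested genes were called lower and 0 higher (median -1.11 against -0.02 for all genes): Hoxd10, Hoxd11, Atp12a and Ly6g. Over all genes 1.44% were called lower and 2.26% higher. Atp12a, the proton pump of the distal colon, read 92.6, 119.8 and 101.9 FPKM in untreated WT and 37.1, 40.5 and 37.3 FPKM in untreated TG libraries (log2 fold change -1.37, SE 0.14, adjusted p = 0.00159). Ly6g read 63.9 to 83.5 FPKM in WT and 25.2 to 37.9 FPKM in TG libraries (-1.07, SE 0.19, adjusted p = 0.017). Insl5, the hormone of distal colonic endocrine cells, was at 14.5 to 20.6 FPKM in WT and 18.2 to 31.1 FPKM in TG libraries. Prac1 was not matched to any gene entry, so its level is not known. The summed level was 235 ± 18.2 FPKM (n = 3) in untreated WT, 121.8 ± 11.95 (n = 3) in untreated TG, 345 ± 33.4 (n = 2) in WT after DSS and 397 ± 41.1 (n = 2) in TG after DSS. Ly6g was the largest part of the sum in each DSS library, at 111.3 and 137.3 FPKM in WT and 170.2 and 243.0 FPKM in TG. The higher sum in TG than in WT after DSS rests on this gene.

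With DSS the distal colon list did not move as 1 block. In WT tissue 3 genes rose, Insl5 (log2 fold change 1.49), the tight junction gene Cldn8 (2.13) and Ly6g (0.84), and 2 fell, the sodium channel subunit Scnn1g (-1.97) and Hoxd12, with 19.8% of all genes called. In TG tissue 4 genes rose, Insl5 (1.47), Cldn8 (1.68), Atp12a (1.09) and Ly6g (2.73), and 0 fell, with 5.48% of all genes called. In TG against WT after DSS, 0 of 10 were called by edgeR, 6 were under 0.05 before adjustment and 3 were called by DESeq2 (Cldn8, Ly6g and Scnn1b).

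Markers of the more proximal regions were compared in the same way. Of 15 tested duodenal and jejunal genes 3 were called lower and 0 higher in untreated TG tissue (median -0.73), where 1.44% of all genes were called lower and 2.26% higher: the folate carrier Slc46a1 (log2 fold change -1.18, SE 0.16, adjusted p = 0.0071), the peptide carrier Slc15a1 (-0.91, SE 0.15, adjusted p = 0.0139) and the retinol binding protein Rbp2 (-0.90, SE 0.19, adjusted p = 0.0324). In 2 genes of the list, Cps1 of the urea cycle (6.34 to 7.30 against 3.71 to 4.55 FPKM) and adenosine deaminase, Ada (5.15 to 5.71 against 3.96 to 4.30 FPKM), the TG libraries were all above the WT libraries without a call (adjusted p = 0.165 and 0.274). Of 8 ileal genes the vitamin B12 receptor subunit Cubn was called lower (-1.89, SE 0.23, adjusted p = 0.00421), from 0.88 to 1.30 FPKM in WT to 0.25 to 0.35 FPKM in TG libraries. Of 12 colon genes Car4 was called lower (-0.78) and Retnlb, a goblet cell lectin, higher (2.75). In the same tissue 3 of 5 tested Paneth-type genes, Pnliprp2, Ang4 and Itln1, were higher, while the Paneth gene list as a whole has 8 members of which 3 were under a mean of 1 FPKM.

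In WT tissue after DSS, where 9.62% of all genes fell and 10.2% rose, 7 of 15 duodenal and jejunal genes fell and 1 (Ada) rose. Among those that fell were Slc2a5 (-2.09), Rbp2 (-1.88), Anpep (-1.51) and Slc15a1 (-1.49). Of 12 colon genes 5 fell, among them the water channel Aqp8 (-1.55), the chloride exchanger Slc26a3 (-1.53), Slc9a3 (-1.33) and Car1 (-1.07). In TG tissue after DSS, where 3.33% of all genes rose and 2.15% fell, 3 duodenal and jejunal genes rose (Cybrd1, 1.99, Mttp, 1.27, and Slc46a1, 0.80) and Slc5a1 fell (-0.59), while among colon genes Car4 rose (0.98) and Retnlb (-2.36) and Slc9a3 (-1.30) fell. In TG against WT after DSS the fructose carrier Slc2a5 was the 1 gene called in the 4 lists from duodenum to distal colon (1.51, SE 0.21, adjusted p = 0.0342).

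Genes that CDX2 and HNF4 are known to activate were followed as a readout of the factors. Of 12 genes listed for CDX2, 1 (Slc15a1) was called lower in untreated TG tissue, where 1.44% of all genes were called lower. With DSS in WT tissue 3 fell (Slc15a1, Mep1a, -1.32, and Car1), where 9.62% of all genes fell. In TG against WT after DSS, or with DSS in TG tissue, edgeR and DESeq2 called 0, with 3 under 0.05 before adjustment in each. By edgeR 0.185% and 5.48% of all genes were called there. Of 12 tested genes listed for HNF4, 0 were called by edgeR in untreated tissue (median -0.25, 11 of 12 below 0) or in TG against WT after DSS. Before adjustment 3 were under 0.05 in each, and DESeq2 called 0 in untreated tissue. With DSS, Acaa2 (-0.75) and Myo7b (-0.59) fell in WT tissue (2 of 12, beside 9.62% of all genes), and Mttp (1.27) rose in TG tissue (1 of 12, beside 3.33%). In untreated TG against WT tissue the log2 fold change was 0.29 for Cdx2 and 0.09 for Hnf4a, both not called, beside medians of -0.13 and -0.25 for the listed genes. In TG against WT after DSS it was 0.38 for Cdx2 and 0.01 for Hnf4a, also not called, beside medians of 0.33 and 0.30, with 10 of 12 genes of each list above 0.

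Across the 10 libraries the factors fell into sets that varied together. As a description over libraries that share groups, the Pearson correlation of log2 CPM was 0.85 for Hoxb13 with Hoxd13, 0.85 for Cdx2 with Gata6, 0.83 for Cdx1 with Gata6, 0.79 for Cdx2 with Hnf4a and 0.79 for Gata6 with Hnf4a. Cdx1 and Hnf4g ran against each other (-0.75), and Hnf4a and Hnf4g were unrelated (0.00). Of 12736 genes with a mean of at least 1 CPM, the one most like Hoxd13 was Hoxd11 (0.96), followed by Tmem265 (0.95), Gm11437 (0.94), Fzd6 (0.93) and Evx2 (0.93). Hoxb13 was most like Trit1 (0.94), Endov (0.92), Evx2 (0.92), Polm (0.92) and 9130011E15Rik (0.91). The most similar genes were Plxna1 for Cdx1 (0.97), Jund for Cdx2 (0.95), Ddr1 for Gata6 (0.97), Zfp212 for Hnf4a (0.97), 2610005L07Rik for Hnf4g (0.96) and Slc35e2 for Gata4 (0.86).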

How the data were processed

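Poly-A RNA libraries were sequenced on the BGISEQ-500 platform, per the labels' protocols. The tools given without their roles in the submitters' processing notes are RSEM 1.2.12, HISAT2 2.0.4 and Bowtie2 2.2.5, and the build is mm10. The authors deposited 1 table per library with expected counts, FPKM values and gene length in bases, per the file headers. A gene missing from a table was set to 0; the lowest FPKM listed is 0.01. Strand handling is not given in the sources used here. Expected counts were rounded, scaled with TMM and filtered with filterByExpr (minimum 10, total 15; 14072 genes kept). A quasi-likelihood fit of all 10 libraries in edgeR 4.0.16 (R 4.3.3) gave 5 contrasts; a gene was called at a Benjamini-Hochberg adjusted p under 0.05. Levels between genes were compared as deposited FPKM. Promoters are from RefSeq, GRCm38.p6, and gene coordinates are of the same assembly. The edgeR step was tested on simulated data.

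The members and gene lists were chosen with earlier results of these data known. Named genes are the 8 factors, HOX genes with a mean of at least 1 CPM, up to 4 passing genes per list by size of change, up to 4 of the highest in region lists and those at 0 throughout, Pdx1, Gata5, the 5 genes most correlated with each factor (of which the first is given for most), and ITGB6; other HOX and flanking genes, Lct, Slc2a2, Apoa4, Fabp1, Fgf15, Sox2, Cps1, Ada, Insl5, Xist, Kdm5d and genes called by DESeq2 alone were named after their values were seen. Alternatives were DESeq2 1.42.0, its size factors, upper quartile and total count scaling, no filter, at least 1 CPM in 5 libraries, a block for the replicate number, fits of the compared groups alone, limma 3.58.1 on log2 FPKM (pseudocount 1 or 0.1, or no filter) and leaving out each library, 22 fits in all with the main one.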

Additional observations from a re-analysis of the deposited data

Results flagged for a closer look

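Of 110 tested genes among the regional factors, HOX genes, listed targets and region markers, 9 had a DSS effect that differed between TG and WT tissue in the interaction test (edgeR, adjusted p under 0.05), where 0.846% of all genes were called (0.526% higher and 0.32% lower). In all 9 the DSS effect was higher in TG. Of these, Cubn, Rbp2, Ly6g, Car4, Slc15a1, Slc46a1 and Atp12a were already called lower in untreated TG than in untreated WT tissue. Over all genes 1.44% were called lower there. Their interaction therefore includes a difference present before DSS. In TG against WT after DSS only Slc2a5 of the 9 was called by edgeR. On the log2 scale the difference was 2.87 for Cubn, 2.43 for Creb3l3 (a lipid metabolism factor of enterocytes), 2.08 for Slc2a5, 1.89 for Rbp2, 1.89 for Ly6g, 1.68 for Car4, 1.38 for Slc15a1, 1.35 for Slc46a1 and 1.26 for Atp12a. Cubn fell by 1.69 in WT (SE 0.27) and rose by 1.18 in TG (SE 0.26), and Car4 fell by 0.70 in WT (SE 0.16) and rose by 0.98 in TG (SE 0.15). Slc2a5 fell by 2.09 in WT and had a log2 fold change of -0.02 in TG tissue. Of the 9, only Slc2a5 was called in each of 21 fits, and the others in 10 to 20 fits. In both genotypes DSS and sex cannot be told apart.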

How the results depend on the processing

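Hoxd13 was called in untreated tissue in all 22 fits. Leaving out 1 library gave 1 to 2 called factors in untreated tissue (2 without TG untreated 1, with Hoxb13), 0 to 1 with DSS in WT tissue (Cdx2, without TG untreated 1 or 2) and 0 to 1 with DSS in TG tissue (Hnf4g, without TG untreated 1). Cdx2 was also the 1 factor called with DSS in WT tissue under total count scaling, with only the groups compared and in the 3 fits of log2 FPKM. The cause was not tested. The count of HOX genes called in untreated tissue, 3, was 1 to 4 on leaving out a library. The libraries share replicate numbers. Deviations from the group mean had correlations of -0.29 to 0.206 in the 13 pairs of like number (2 over 0.1). Pairs of unlike number ran from -0.206 to 0.29. In groups of 2 the deviations mirror each other, so pairs repeat each other. The 2 over 0.1 are the DSS pairs, with the same value. The check therefore cannot decide whether libraries of like number belong together. The replicate block gave 1 HOX gene and left the number of called factors as it was in each comparison.

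Signs turned for differences that were not called. Hnf4a in TG against WT after DSS was -0.0009177 with DESeq2 size factors, -0.070 with total counts, -0.010 with only the groups compared and -0.071, -0.071 and -0.071 with FPKM. Cdx1 with DSS in WT was 0.0043 with DESeq2 and 0.0024 with its size factors. The Gata4 interaction was -3.685e-05 with DESeq2, -0.21 with the replicate block and -0.022 with unfiltered FPKM. Leaving out a library gave, in the order TG against WT untreated, after DSS, DSS in WT, DSS in TG and interaction, Gata4 from -0.15 to 1.005, -0.65 to 0.89, -1.09 to 0.24, -1.42 to 0.088 and -0.93 to 0.61. It gave Hnf4a after DSS from -0.039 to 0.057, Hoxb13 after DSS from -0.27 to 0.10 and with DSS in TG from -0.12 to 0.25. Cdx1 ran from -0.029 to 0.0095 with DSS in WT, -0.17 to 0.11 with DSS in TG and -0.17 to 0.11 in the interaction. Hnf4g ran from -0.46 to 0.050 with DSS in WT and -0.48 to 0.033 in the interaction. The interaction ran from -0.066 to 0.26 for Cdx2 and -0.010 to 0.18 for Gata6. Of the factors' fold changes under alternatives, 774 kept direction and call, 39 turned sign and 9 newly passed. Gata4, at 6 to 31 counts, is limited by depth.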

Other observations

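Other transcription factors of the gut epithelium changed with DSS in WT tissue. Of 21 tested, 5 fell and 1 rose, where 19.8% of all genes were called. Maf, a regulator of enterocyte maturation, fell from 7.21, 10.9 and 9.41 CPM to 3.19 and 1.46 CPM (log2 fold change -1.99, SE 0.36, adjusted p = 0.00548 by edgeR). Creb3l3 fell by 1.38, Ppara (the fatty acid receptor of oxidative metabolism) by 1.18, Vdr (the vitamin D receptor) by 0.93 and Osr2 by 0.92 on the log2 scale. Elf3, an epithelial ETS factor, rose from 721.1, 735.3 and 617.5 CPM to 1139 and 1018 CPM (0.64, SE 0.15, adjusted p = 0.016). In TG tissue 0 of the 21 were called with DSS by edgeR, 6 were under 0.05 before adjustment and DESeq2 called 3 (Creb3l3, Elf3 and Maf). In untreated TG against WT tissue 1 was called higher by edgeR, Foxa3, a forkhead factor (1.10, SE 0.17, adjusted p = 0.0112). Over all genes 2.26% were called higher in that comparison.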
